A study of Mus musculus with 3 samples.

Results

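T cells that carry 2 productive α chains with a single β chain were examined in the sciatic nerve infiltrate of neuropathic NOD.AireGW/+ mice. A cell was counted as a dual-alpha cell when its barcode held at least 2 distinct productive TRA contigs, which differed in V gene, nucleotide CDR3 or J gene, and exactly 1 productive TRB. By this rule 363 of 6634 cells with a productive chain were dual-alpha cells. Replicate 1 gave 152 of its 2374 cells, replicate 2 gave 192 of 3555 and replicate 3 gave 19 of 705. All dual-alpha cells had exactly 2 productive TRAs.

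All 3 libraries are from 1 condition. NOD.AireGW/+ mice are nonobese diabetic mice heterozygous for the GW mutation of Aire, the gene through which the thymus displays tissue antigens, and they develop a spontaneous autoimmune peripheral neuropathy. CD45+ immune cells were sorted from digested sciatic nerves after perfusion and their rearranged TCR transcripts were read by droplet single-cell sequencing. Replicates 1 and 2 each came from 1 mouse, and replicate 3 pooled 2 mice that cannot be separated here, so 3 libraries from 4 mice were available and no non-neuropathic control was analysed. The study describes the mice used as female, and their age is not given in the labels.

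A T cell carries the α chain locus on both copies of its chromosome. The β locus is rearranged first and allelic exclusion usually leaves a single productive β chain. The α locus is not held to this rule. Both copies rearrange at about the same time, each can rearrange repeatedly with V genes further upstream and J genes further downstream, and the process ends only when a receptor is positively selected. A mature T cell can therefore carry 2 productive α rearrangements, which is called allelic inclusion. The α chains then compete for the 1 β chain, so a single T cell may display receptors of different specificity.

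The rearrangements that carried the finding most directly are those in which the same 3 chains were read from several cells of a library. The CDR3 nucleotide sequences of leading combinations of each library are shown 5′ to 3′, from the deposited contigs. Capitals mark the bases between the end of the aligned V gene and the start of the aligned J gene, which for a β chain include the D gene, and a sequence with no capitals is one in which the aligned V and J genes met or overlapped. The first alpha is the one with more UMIs over the cells of the combination.
TRBV5/TRBJ2-1, beta, replicate 1: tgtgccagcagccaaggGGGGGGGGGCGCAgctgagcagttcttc
TRAV9-1/TRAJ48, first alpha, replicate 1: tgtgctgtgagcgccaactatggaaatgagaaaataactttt
TRAV9-1/TRAJ40, second alpha, replicate 1: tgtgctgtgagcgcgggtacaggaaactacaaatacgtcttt
TRBV2/TRBJ2-7, beta, replicate 1: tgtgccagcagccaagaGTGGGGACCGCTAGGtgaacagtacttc
TRAV10N/TRAJ49, first alpha, replicate 1: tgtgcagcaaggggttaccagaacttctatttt
TRAV3-3/TRAJ45, second alpha, replicate 1: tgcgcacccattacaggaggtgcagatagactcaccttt
TRBV1/TRBJ2-4, beta, replicate 2: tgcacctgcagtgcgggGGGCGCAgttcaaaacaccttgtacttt
TRAV13-1/TRAJ11, first alpha, replicate 2: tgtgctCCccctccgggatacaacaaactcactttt
TRAV9D-3/TRAJ7, second alpha, replicate 2: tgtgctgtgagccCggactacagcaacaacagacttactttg
TRBV19/TRBJ1-4, beta, replicate 3: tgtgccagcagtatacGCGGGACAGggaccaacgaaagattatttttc
TRAV13-1/TRAJ6, first alpha, replicate 3: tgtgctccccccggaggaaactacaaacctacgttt
TRAV7-1/TRAJ9, second alpha, replicate 3: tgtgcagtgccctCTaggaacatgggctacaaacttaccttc
In each of these 4 combinations the alphas differ in J gene and in CDR3. In all 363 cells, no pair of alphas had CDR3s of the same length with at most 1 base of difference. Only 1 cell, in replicate 1, held alphas with the same V and the same J gene.

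The depth of the libraries differed. The contigs of the cells carried 34630 UMIs (unique molecular identifiers, the counts of captured transcripts) in replicate 1, 41338 in replicate 2 and 5142 in replicate 3, with a median of 6, 5 and 3 UMIs per contig. The libraries shared 10 cell barcodes, and none of these had a chain in common between its libraries. Because the library is the unit of replication, comparisons were made over 3 libraries, for which the smallest two-sided p of an exact sign-flip permutation test is 0.25. Intervals for shares are exact Clopper-Pearson 95% intervals and cover counting error only.

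Among cells with exactly 1 TRB and at least 1 TRA, the share with 2 alphas was 7.18% ± 2.01 (SD, n = 3 libraries). It was 8.67% of 1754 cells in replicate 1 (95% interval 7.39% to 10.1%), 7.97% of 2408 cells in replicate 2 (6.92% to 9.13%) and 4.90% of 388 cells in replicate 3 (2.97% to 7.54%). The interval of replicate 3 overlapped both others only at its upper end. These intervals take cells as independent, which cells of 1 clone are not. With 1 cell for each TRB, the one with the most TRA UMIs, the shares were 12.5%, 9.28% and 4.24%, further apart.

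The share was higher in cells with more TRA UMIs. In replicate 1 it was 2.79% at 2 to 3 TRA UMIs, 5.67% at 4 to 7, 15.9% at 8 to 15 and 29.9% (21.02% to 40.0%) at 16 or more. In replicate 2 the same classes gave 3.63%, 8.11%, 22.8% and 34.7% (21.7% to 49.6%). Replicate 3 gave 0.68%, 10.9% and 23.1% in the first 3 classes, and its last class held only 3 cells. The rule itself needs 2 detected TRAs, and a cell with 1 TRA UMI cannot meet it.

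**Figure D1:**
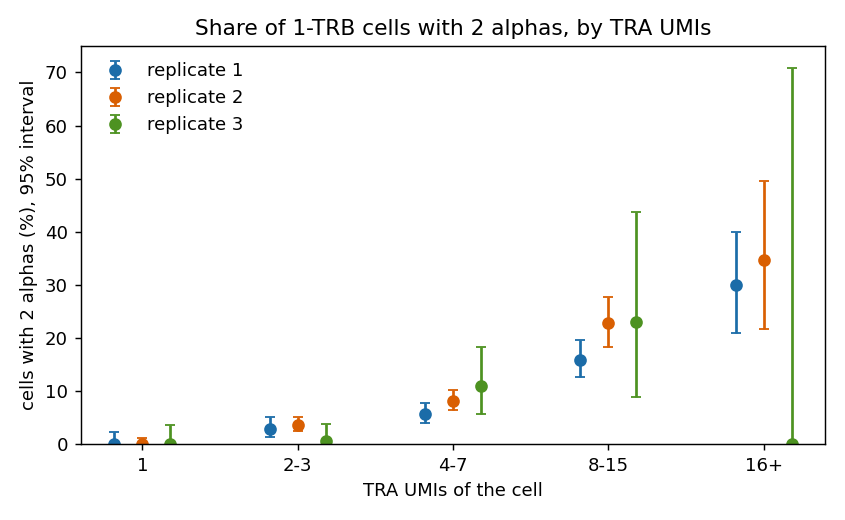
Percent of cells with exactly 1 TRB that held 2 alphas (y axis), by the summed TRA UMIs of the cell (x axis, classes), for each library; bars are exact 95% intervals. The share is 0 at 1 UMI, where 2 alphas cannot be seen, and reaches 29.9% and 34.7% at 16 or more UMIs in replicates 1 and 2.

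The shares were closer among cells with at least 4 TRA UMIs. When each cell was thinned to 4 TRA UMIs, as an exact expected share that leaves out 516, 1172 and 249 shallower cells, the share with 2 alphas was 10.2%, 11.9% and 11.7%. Without thinning, the same cells gave 11.5%, 13.03% and 12.9%. The mean was 11.2% ± 0.907 (SD, n = 3 libraries) with thinning and 12.5% ± 0.877 without, so the values lay closer once the shallower cells were left out, and thinning itself lowered them.

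Where both alphas were read, the UMIs of the second were set against those of the first. In each cell the alpha with more UMIs was taken as the first, and its median was 6 UMIs in replicate 1, 4 in replicate 2 and 4 in replicate 3. At equal UMIs, in 19, 52 and 2 cells, the order followed the gene name, here and below. The second alpha had medians of 4, 3 and 2 UMIs. The median ratio of second to first was 0.60, 0.67 and 0.60, with the middle 50% of cells from 0.50 to 0.80 in replicate 1, from 0.50 to 1.00 in replicate 2 and from 0.50 to 0.69 in replicate 3. This ratio is at most 1 by its construction. A cell whose second alpha was too low to be read is not a dual-alpha cell, so low ratios are cut off as well.

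A second alpha that rested on 1 UMI was the exception. It was found in 14 of 152 cells of replicate 1 (9.21%, 5.13% to 14.97%), 34 of 192 of replicate 2 (17.7%, 12.6% to 23.9%) and 2 of 19 of replicate 3 (10.5%, 1.30% to 33.1%). Both alphas had at least 3 UMIs in 110, 101 and 6 cells. The first alpha had at least 3 times the UMIs of the second in 17, 24 and 3 cells.

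**Figure D2:**
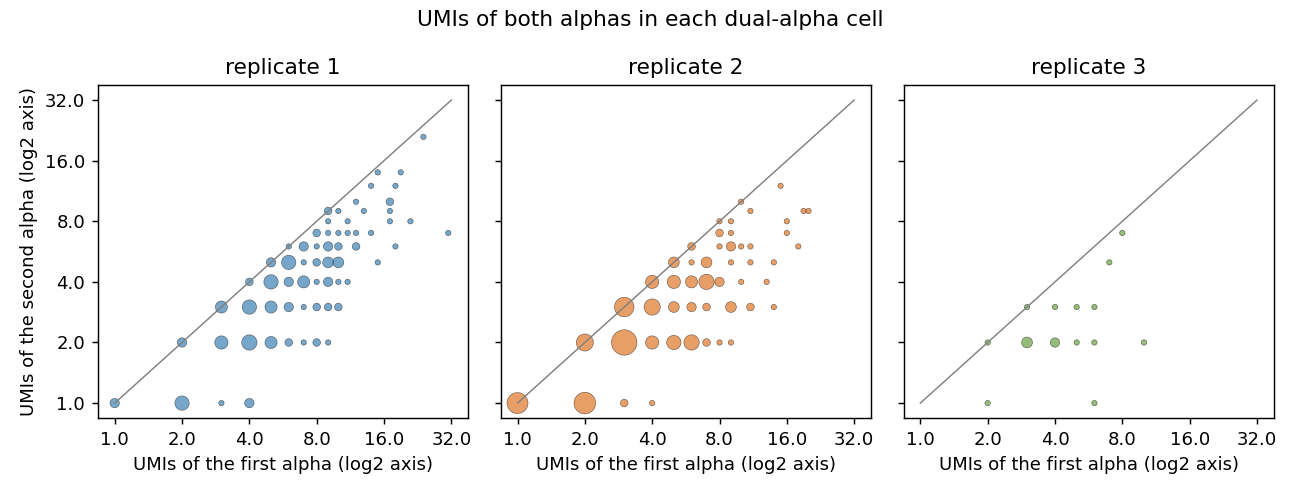
UMIs of the first alpha (x axis) and of the second alpha (y axis) in each dual-alpha cell, both on log2 axes, with the circle area in proportion to the number of cells and the grey line at equality. Most cells lie within a factor of 3 of the line, and 14, 34 and 2 cells have a second alpha at 1 UMI.

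Dual-alpha cells had more TRA UMIs in sum than cells with 1 TRA and 1 TRB, which are called single-alpha cells here. The medians were 10 against 5 in replicate 1, 7 against 3 in replicate 2 and 6 against 3 in replicate 3, a log2 ratio of 1.07 ± 0.13 (SD, n = 3), higher in 3 of 3 libraries (exact sign-flip test, two-sided p = 0.25). The first alpha alone was nearer to the alpha of a single-alpha cell, with medians of 6, 4 and 4 against 5, 3 and 3. Since the rule selects cells with 2 detected TRAs, cells with more TRA UMIs were favored by it.

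The β chain, on which the rule set no minimum beyond detection, differed less. Its median was 8 UMIs in dual-alpha and 7 in single-alpha cells of replicate 1, 7 and 6 in replicate 2, and 5 and 4 in replicate 3. The log2 ratio was 0.25 ± 0.07 (SD, n = 3), also higher in 3 of 3 libraries (exact sign-flip test, two-sided p = 0.25). With chains of at least 2 UMIs it was 0.00, 0.00 and 0.32 (p = 1 in the exact test), and with at least 3 UMIs 0.00, -0.19 and 1.00, so the direction was not kept in 3 of 3 libraries. As deposited, the ratio for the β chain was 1.14, 1.17 and 1.25-fold in the 3 libraries, against 2.00, 2.33 and 2.00-fold for the summed α chain.

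The α pair recurred in sister cells. Of the 363 dual-alpha cells, 152 had a TRB that another cell with 1 TRB and at least 1 TRA of the same library also carried, and in 109 of these (71.7%, 63.8% to 78.7%) another such cell held both alphas again. A further 41 shared only 1 alpha with any single other cell of that TRB, and 2 had a TRB whose other cells carried neither. By library the pair was found again in 30 of 45 cells (66.7%, 51.0% to 80.0%), 73 of 101 cells (72.3%, 62.5% to 80.7%) and 6 of 6 cells (100%, 54.1% to 100%), a mean of 79.6% ± 17.8 (SD, n = 3 libraries). At least 1 alpha was found again in 44, 100 and 6 cells. A pair found again counts in every cell that holds it, so the 109 cells are 31 combinations, of which replicate 3 had 2. The intervals take cells as independent, which cells of 1 clone are not. By TRB, 72 found in at least 2 cells with a TRA had a dual-alpha cell, and 40 of them had only 1. The other 211 dual-alpha cells had a TRB seen in no other such cell, so recurrence could not be examined in them. Sister TRBs that carry different V names are counted apart in all these numbers. With the TRBV name ignored, the pair was found again in 68.75%, 69.8% and 85.7% of cells, a mean of 74.8%.

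Where a TRB had several dual-alpha cells, they nearly always held the same pair. In all, 32 TRBs had 2 or more dual-alpha cells. In 30 of them every dual-alpha cell held 1 and the same pair, in 1 only some did, and in 1 the pairs differed. Of 523 TRBs found in at least 2 cells with a TRA, 72 (13.8%) had a dual-alpha cell, which was 12.2%, 15.8% and 5.71% of such TRBs in the 3 libraries.

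Altogether 31 distinct combinations of 1 TRB and 2 TRAs were held by at least 2 cells, 10 in replicate 1, 19 in replicate 2 and 2 in replicate 3, out of 132, 138 and 15 distinct combinations. No combination was shared between libraries, by nucleotide or by amino acid sequence. Of the 31 combinations, 14 were held by 2 cells and 17 by at least 3 cells.

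The largest recurring combination of replicate 1 joined TRBV5/TRBJ2-1 to TRAV9-1/TRAJ48 and TRAV9-1/TRAJ40, so both alphas used the same V gene. TRAV9-1 lies on chromosome 14 of GRCm38 from 53488045 to 53488567, TRAJ48 from 54169808 to 54169868 and TRAJ40 from 54177921 to 54177981, all on the plus strand. Of 14 cells with this TRB, 8 held both alphas, 4 only the TRAJ48 alpha and 2 only the TRAJ40 alpha. In the 8 cells the TRAJ48 alpha had 11, 7, 4, 5, 6, 2, 3 and 4 UMIs and the TRAJ40 alpha 7, 4, 6, 5, 4, 7, 4 and 3 UMIs in the same order. Neither alpha stood above the other, as the TRAJ48 alpha was ahead in 4 cells and the TRAJ40 alpha in 3.

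The next combination of replicate 1 joined TRBV2/TRBJ2-7 to TRAV10N/TRAJ49 and TRAV3-3/TRAJ45. It was complete in 4 of 6 cells, with 7, 6, 7 and 8 UMIs of the TRAJ49 alpha and 9, 9, 5 and 4 UMIs of the TRAJ45 alpha, and each alpha was read alone in 1 cell. In a combination of TRBV15/TRBJ2-5 with TRAV7D-3/TRAJ12 and TRAV1/TRAJ27, 3 of 5 cells held both alphas, 1 held only the TRAJ12 alpha and 1 had no TRA. Here the TRAJ12 alpha was ahead in 3 of 3 cells, with 17, 9 and 7 UMIs against 8, 8 and 4. The fourth, TRBV20/TRBJ2-7 with TRAV17/TRAJ15 and TRAV17/TRAJ57, was complete in 3 of 3 cells, again with 1 V gene in both alphas.

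In replicate 2 the largest combination joined TRBV1/TRBJ2-4 to TRAV13-1/TRAJ11 (TRAJ11 at 54207139 to 54207197 of chromosome 14) and TRAV9D-3/TRAJ7 (TRAJ7 at 54211470 to 54211528). Of 24 cells with this TRB, 9 held both alphas, 9 only the TRAJ11 alpha, 3 only the TRAJ7 alpha and 3 no TRA. In the 9 complete cells the TRAJ11 alpha had 13, 8, 5, 6, 5, 3, 2, 1 and 1 UMIs and the TRAJ7 alpha 4, 4, 5, 4, 3, 3, 3, 1 and 1. In the 9 cells with the TRAJ11 alpha alone it had 11, 11, 10, 8, 7, 7, 7, 4 and 1 UMIs. Cells of this clone without the TRAJ7 alpha thus included cells with more UMIs of the TRAJ11 alpha than most of the complete cells had.

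TRBV13-1/TRBJ1-1 with TRAV5-4/TRAJ39 and TRAV7D-4/TRAJ52 was complete in 8 of 11 cells of replicate 2, with 2 cells holding only the TRAJ39 alpha and 1 no TRA. TRBV14/TRBJ1-1 with TRAV14D-1/TRAJ21 and TRAV14D-2/TRAJ31 was complete in 5 of 11 cells, with 4 and 2 cells holding only the first or only the second. Every cell of both TRBs that had a TRA held at least 1 alpha of its pair.

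In replicate 3 the TRB of the largest clone, TRBV19/TRBJ1-4, was itself joined to 2 alphas, TRAV13-1/TRAJ6 and TRAV7-1/TRAJ9. Of its 14 cells, 4 held both alphas, 7 only the TRAJ6 alpha, none only the TRAJ9 alpha and 3 no TRA. The complete cells had 6, 2, 2 and 2 UMIs of the TRAJ6 alpha and 3, 4, 3 and 1 of the TRAJ9 alpha. The 7 cells with the TRAJ6 alpha alone had 45, 19, 5, 4, 3, 2 and 1 UMIs, so the 2 cells with the most UMIs of this alpha lacked the other. Whether both alphas came from 1 of the 2 pooled mice cannot be told from the labels. TRBV10/TRBJ1-6 with TRAV9D-3/TRAJ24 and TRAV15D-1-DV6D-1/TRAJ12 was complete in 2 of 2 cells, at 7 and 7 UMIs against 8 and 5. TRBV10 is annotated as a pseudogene in the reference genome, and its contigs here were deposited as productive.

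**Figure D3:**
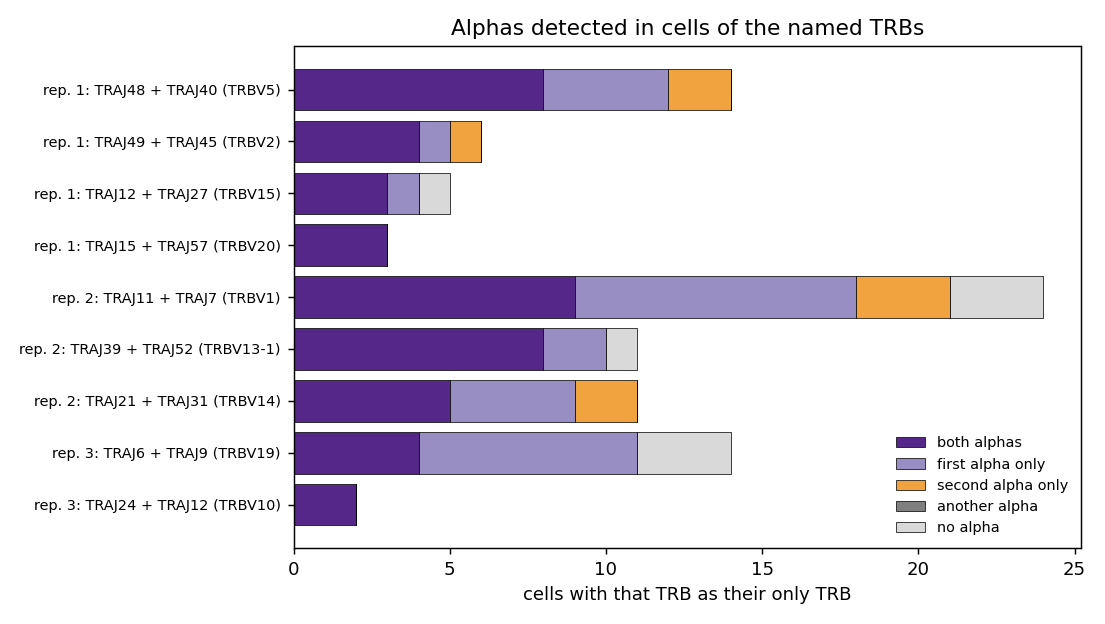
Number of cells with the named TRB as their only TRB (x axis), divided by the alphas read in the cell, for leading combinations of each library, named by the J genes of the first and second alpha and the TRBV gene. Both alphas were read in 8 of 14 cells of the top bar and in 4 of 14 cells of the TRAJ6 and TRAJ9 bar, and no named TRB has a cell whose alpha is neither of the pair.

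Across the 31 recurring combinations, 175 cells had the TRB and at least 1 TRA. Both alphas were read in 109 (62.3%), only the first in 43, only the second in 20 and neither in 3. These combinations were chosen because at least 2 cells held the pair, so the share describes them and is no estimate for others. Cells with both alphas had a median of 11, 8 and 7.5 TRA UMIs in the 3 libraries, summed over the 2 alphas. Cells with 1 of the alphas had a median of 4 in each library, for that alpha alone. A sum over 2 chains is set against 1 chain, so the gap is in part built in and does not show that the latter cells were shallower.

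In 24 of the 31 combinations neither alpha was read in any cell with a different TRB. A TRB with another V name counts as different here, and some sister TRBs carry different V names. Of the combinations named above, the TRBV2 combination of replicate 1 had each alpha read in 1 cell with a different TRB. A dual-alpha cell of replicate 1 with TRBV16/TRBJ2-7 held both V and J gene pairs of these alphas, at 3 UMIs each, matched here by gene names only. The largest combination of replicate 2 had its TRAJ11 alpha read in 1 cell with a different TRB. The exception that stood out was in replicate 2, where TRBV12-2+TRBV13-2/TRBJ2-3, as the contig files name it, was joined in 2 cells to TRAV6-6/TRAJ6 and to a TRAV1/TRAJ33 alpha that was also read in 11 cells with other TRBs. TRAV1 joined to TRAJ33 is the α chain of mucosal-associated invariant T (MAIT) cells, which is made with little junctional diversity. Of cells with such an alpha, 3 were dual-alpha and 12 single-alpha in replicate 2, and none was dual-alpha in the other libraries. An alpha of TRAV11 with TRAJ18, the α chain of invariant NKT cells, was the second alpha of 2 dual-alpha cells of replicate 2, at 1 and 2 UMIs. These 2 gene pairs were the only invariant types searched for.

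The dual-alpha cell with the most TRA UMIs was also examined in each library. In replicate 1 it held TRAV13-1/TRAJ43 at 24 UMIs and TRAV3-3/TRAJ37 at 21, with 67 UMIs of a TRBV5/TRBJ2-5 chain, and the other cells among the 3 with that TRB carried neither alpha. In replicate 2 it held TRAV4-3/TRAJ22 at 20 UMIs and TRAV13-1/TRAJ11 at 9, and other cells of its TRB carried 1 of them. In replicate 3 it was a cell of the recurring TRBV10 combination.

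Of the 41 cells that shared only 1 alpha with any single other cell, it was the first in 22 and the second in 17. In 2 each alpha was found in a different cell. Either alpha could thus be the one shared with sister cells. Cells with equal UMIs are among these, ordered by gene name, so the counts do not rank the alphas by UMIs in every cell.

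The J genes of both alphas lay near each other. TRAJ genes were numbered along the locus from 1 (TRAJ61, nearest the V genes) to 60 (TRAJ1, nearest the constant region), over 63.8 kb of chromosome 14. Each distinct combination of a TRB and its 2 TRAs was counted once, which gave 285 pairs. The median distance between the J genes of a pair was 7 steps in replicate 1, 8 in replicate 2 and 3 in replicate 3. Between alphas of different dual-alpha cells of the same library it was 13, 13 and 16 steps. The difference was -6, -5 and -13 steps, a mean of -8.00 ± 4.36 (SD, n = 3), shorter within cells in 3 of 3 libraries (exact sign-flip test, two-sided p = 0.25).

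Pairs within 10 steps made up 68.9% (60.3% to 76.7%), 63.8% (55.2% to 71.8%) and 86.7% (59.5% to 98.3%) of pairs in the 3 libraries. Between cells the corresponding shares were 41.2%, 41.4% and 34.0%. The same J gene was used by both alphas in 12 of 132, 5 of 138 and 3 of 15 pairs, or 9.09%, 3.62% and 20.0%, against 3.21%, 3.16% and 3.10% between cells. Spearman's rho between the J positions of the first and second alpha was 0.59, 0.45 and 0.90, and 0.54 over all 285 pairs. The pairs of 1 library share a library and a mouse or mice, and rho is given as a description.

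**Figure D4:**
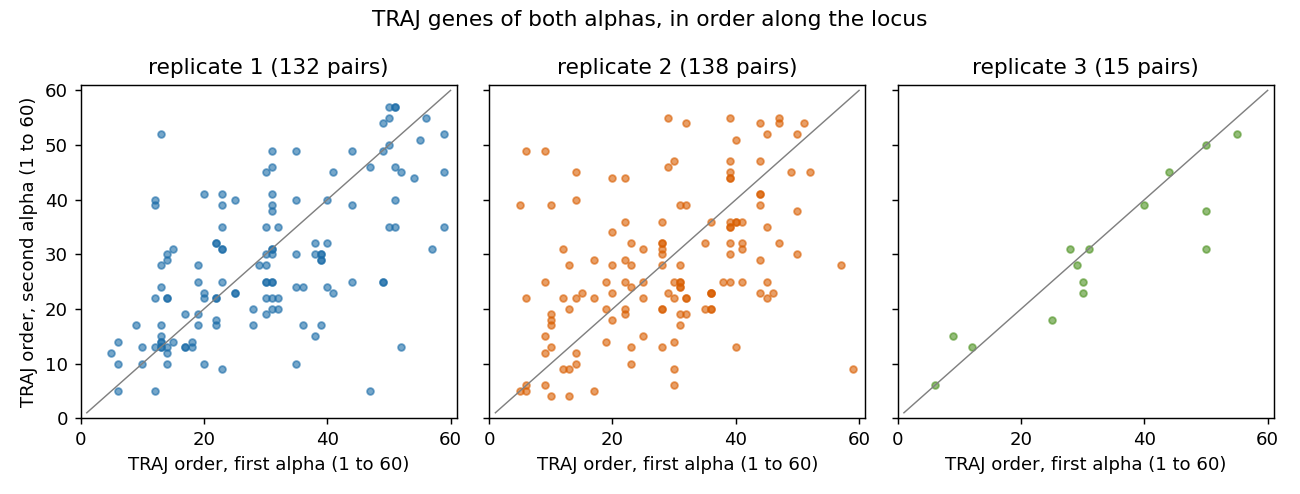
Position of the TRAJ gene of the first alpha (x axis) and of the second alpha (y axis), as order along the locus from 1 nearest the V genes to 60 nearest the constant region, with 1 point for each distinct combination and the grey line at equality. Points gather along the line in each library, with rho of 0.59, 0.45 and 0.90.

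The first alpha used the more downstream J gene in 67, 73 and 8 pairs and the second in 53 of 132, 60 of 138 and 4 of 15, the remaining 12, 5 and 3 pairs having equal J genes. The direction was the same in 3 of 3 libraries and was not tested, and alphas with equal UMIs were ordered by gene name. The median J position was 30 for the first alpha and 25, 25 and 31 for the second, against 28, 30 and 29 in single-alpha cells.

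Other cells with 2 TRA rearrangements served as a comparison for the J positions. In 633 distinct single-alpha rearrangements with 1 further nonproductive TRA in the same cell, the median distance of the J genes was 7 steps, 68.4% (64.6% to 72.0%) lay within 10 steps and rho was 0.62. Dual-alpha pairs gave 7 steps, 67.4% (61.6% to 72.8%) and 0.54. In 113 cells with 2 TRAs and also 2 TRBs the median was 12 steps, 41.6% (32.4% to 51.2%) lay within 10 steps and rho was -0.06. By library the share within 10 steps was 67.9%, 67.8% and 73.3% for the productive and nonproductive TRA, and 47.6% and 38.6% for the cells with 2 TRBs in replicates 1 and 2, replicate 3 having only 1 such cell. The interval of the dual-alpha pairs over all libraries overlapped that of the nonproductive comparison and lay above that of the cells with 2 TRBs. Within replicate 1 the intervals of the dual-alpha pairs and of the cells with 2 TRBs overlapped, and pooling takes pairs of different libraries as independent.

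The J distance was also taken by class of dual-alpha cell, over all libraries. The share within 10 steps was 67.7% of 31 pairs held by at least 2 cells and 58.5% of 41 pairs that shared only 1 alpha with any single other cell. It was 69.2% of 211 pairs whose TRB was in no other cell. Pairs whose second alpha had 1 UMI gave 65.2% of 46, and pairs with both alphas at 3 or more UMIs gave 64.8% of 176. The intervals of the first 3 classes were 48.6% to 83.3%, 42.1% to 73.7% and 62.5% to 75.4%, and they overlapped. The second of these classes had a median of 10 steps and rho of 0.25. Its shares of 64.3% (35.1% to 87.2%) and 55.6% (35.3% to 74.5%) in replicates 1 and 2 had intervals that held the value between cells. The 10 recurring pairs of replicate 1 likewise gave rho of 0.25, and their interval (34.8% to 93.3%) held the value between cells. That of the 19 recurring pairs of replicate 2 (43.4% to 87.4%) did not. Pairs with an alpha read only with another TRB gave 55.9% of 59 (42.4% to 68.8%). Their intervals in replicates 1 and 2 (36.9% to 76.6% and 34.3% to 71.7%) held the value between cells.

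**Figure D5:**
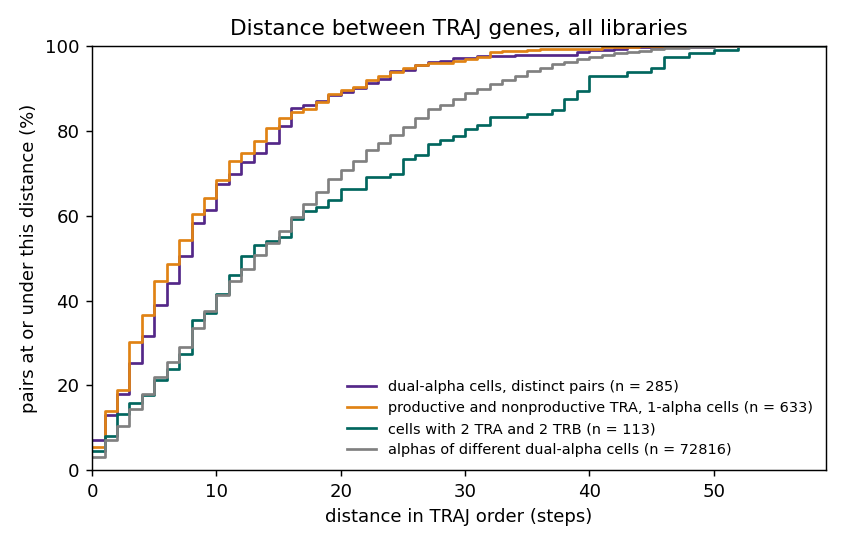
Percent of pairs (y axis) at or under a given distance in TRAJ order (x axis, steps) over all libraries, for alphas of dual-alpha cells, for the productive and a nonproductive TRA of single-alpha cells, for cells with 2 TRAs and 2 TRBs, and for alphas of different dual-alpha cells. At 10 steps the curves stand at 67.4%, 68.4%, 41.6% and 41.2%.

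The V genes showed less of this. Along the 128 annotated TRAV genes, the median distance was 30, 36 and 65 steps within pairs and 35, 39 and 33.5 between cells, so it was shorter within pairs in 2 of 3 libraries. Both alphas were of 1 TRAV family in 10 of 132, 10 of 138 and 0 of 15 pairs, or 7.58%, 7.25% and 0% (a count of 0 allows up to 20%), against 8.64%, 8.64% and 8.81% between cells. All 61 TRAV and 42 TRAJ names of the pairs matched the annotation. The TRAV region of the reference holds near-identical duplicated genes, which are assigned with uncertainty, and its order in NOD mice may differ, whereas J genes are single copies.

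The V and J genes of the alphas were set beside those of single-alpha cells. Among 570 alphas of the 285 pairs, the most frequent families were TRAV6 with 83 (14.6%), TRAV7 with 76 (13.3%), TRAV13 with 56 (9.82%), and TRAV12 and TRAV9 with 54 each (9.47%). Among 2582 distinct rearrangements of single-alpha cells they made up 15.6%, 11.1%, 8.83%, 7.51% and 9.91%. Of 15 families with at least 10 alphas, 4 had a higher and 5 a lower share than in single-alpha cells in 3 of 3 libraries. One of the higher families, named after its values were seen, was TRAV15, at 2.46% against 0.581%. Of the J genes TRAJ31 led with 34 alphas (5.96%, against 4.22% in single-alpha cells), followed by TRAJ40 with 30 (5.26% against 4.26%), TRAJ37 with 29 (5.09% against 2.87%), TRAJ49 with 27 (4.74% against 4.34%), and TRAJ23 and TRAJ32 with 26 each (4.56% against 5.46% and 3.10%). TRAJ37 was at 4.55%, 5.43% and 6.67% in the 3 libraries against 2.47%, 3.14% and 2.85%, and TRAJ31 at 6.82%, 4.35% and 13.3% against 4.19%, 4.27% and 4.11%. Of 26 J genes with at least 10 alphas, 3 were higher and 3 lower in 3 of 3 libraries. None of these genes was tested.

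The length of the CDR3 was compared next. The mean was 13.6 ± 1.48 residues (SD over pairs) for the first and 13.5 ± 1.57 for the second alpha in replicate 1, against 13.6 ± 1.32 in single-alpha cells. In replicate 2 it was 13.8, 13.8 and 13.6 residues. In replicate 3, with 15 pairs, it was 14.6, 13 and 13.5 residues. These lengths were not tested, and the SD of the first alpha in replicate 3 was 2.03 residues over pairs.

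The share of dual-alpha cells in expanded clones was below that of single-alpha cells in 2 of 3 libraries. A TRB held by at least 2 cells of the library was carried by 30.3% of dual-alpha cells (23.1% to 38.2%) and 57.0% of single-alpha cells (54.5% to 59.4%) in replicate 1. In replicate 2 the shares were 53.1% (45.8% to 60.3%) and 56.3% (54.2% to 58.4%), and in replicate 3 they were 31.6% (12.6% to 56.6%) and 27.4% (22.9% to 32.2%). The difference was -26.7, -3.19 and 4.21 percentage points, a mean of -8.57 ± 16.2 (SD, n = 3), and it was below 0 in 2 of 3 libraries (exact sign-flip test, two-sided p = 0.75). Without replicate 1 the mean was 0.507 points. Among cells with at least 4 TRA UMIs the difference was -28.8, -6.86 and -11.9 points, and with chains of at least 2 UMIs it was -25.6, -1.72 and -0.68 points, both below 0 in 3 of 3 libraries (exact sign-flip test, two-sided p = 0.25). With chains of at least 3 UMIs replicate 3 was again above 0, at 18 points.

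The largest clone of replicate 1 bore on this. None of its 250 cells with a TRA held 2 alphas, which allows a share of up to 1.20%. In the largest TRB of replicate 2 the count was 0 of 49 cells (up to 6.12%), although its cells had a median of 9 TRA UMIs. In replicate 3 the largest TRB gave 4 of 11 cells (36.4%, 10.9% to 69.2%), which is the TRBV19/TRBJ1-4 clone described above. The share among cells with a TRB found once was 13.3% (11.0% to 15.9%), 8.51% (6.90% to 10.4%) and 4.63% (2.49% to 7.78%). For TRBs of 2 to 5 cells it was 6.78%, 7.55% and 2.22%. For TRBs of 6 to 20 cells it was 7.73%, 9.47% and 23.5%, the last of only 17 cells. Above 20 cells it was 0% (up to 0.965%) in replicate 1 and 3.77% in replicate 2. The share thus did not fall steadily with the size of the TRB. With the largest TRB of each library left out, the difference in expansion was -18.8, -2.20 and -12.6 points (exact sign-flip test, two-sided p = 0.25).

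Measures that bear on mixed droplets and free RNA were compared between cells with 2 TRAs and cells with 1 TRA. A second TRB was present in 21.6% (16.1% to 28.1%), 26.7% (21.5% to 32.5%) and 5% (0.127% to 24.9%) of all cells with 2 TRAs and a TRB, and in 4.30% (3.38% to 5.39%), 6.22% (5.28% to 7.27%) and 2.38% (1.09% to 4.47%) of cells with 1 TRA and a TRB. The 5% of replicate 3 was 1 of 20 cells, and its interval overlapped that of cells with 1 TRA. The cells with 2 TRBs are outside the rule. More than 2 TRA rearrangements, counting nonproductive contigs of the same cell with other V and J genes, were found in 9.21% (5.13% to 14.97%), 5.73% (2.89% to 10.0%) and 5.26% (0.133% to 26.0%) of dual-alpha cells. In single-alpha cells they were found in 1.06%, 0.316% and 0.271%, and at least 1 nonproductive TRA in 26.7%, 17.4% and 17.3%. A dual-alpha cell passes 2 rearrangements with 1 nonproductive contig, whereas a single-alpha cell needs 2, so the thresholds are unlike. At 1 nonproductive contig for both, the share of single-alpha cells was the higher in each library. The part of mixed droplets in the dual-alpha cells was not tested.

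An alpha that was read in other cells, of which none had the TRB of the dual-alpha cell, was present in 17.1% (11.5% to 24.1%), 15.6% (10.8% to 21.5%) and 15.8% (3.38% to 39.6%) of dual-alpha cells. Counted by chain, this applied to 11.2%, 10.9% and 15.8% of second alphas, 10.5%, 6.77% and 0% of first alphas and 4.12%, 4.06% and 2.71% of the alphas of single-alpha cells. Where the TRB was in 1 cell only, which leaves a shared TRB no chance to be seen, the second alphas gave 11.3%, 15.6% and 23.1%, the first alphas 11.3%, 8.89% and 0% and the single-alpha cells 7.40%, 7.54% and 3.36%. Where the TRB was in at least 2 cells, the second alphas gave 10.9%, 6.86% and 0%. The first alphas gave 8.70%, 4.90% and 0% there and the single-alpha cells 1.64%, 1.36% and 0.990%, with only 6 dual-alpha cells in replicate 3. Both alphas of a cell were read only with other TRBs in 7, 4 and 0 dual-alpha cells. The alpha read most often with the largest TRB of each library was in 0 of the dual-alpha cells of another TRB, which allows a share of up to 1.97%, 1.56% and 15.8% of dual-alpha cells, although that TRB had 250 cells with a TRA in replicate 1. The part of free RNA was not tested.

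The deposited Cell Ranger clonotypes treated these pairs as single clones. Clonotypes with 2 TRAs and 1 TRB numbered 130, 130 and 15 and took 193, 269 and 31 cells. They held 148 of 152, 182 of 192 and 19 of 19 dual-alpha cells, together with 37, 79 and 7 single-alpha cells and 7, 6 and 3 cells with no TRA. The largest of them had 14, 21 and 15 cells. Where a clonotype is instead the exact set of chains of a cell, the complete cells and the cells with 1 of the alphas are counted as separate clonotypes.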

How the data were processed

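TCR transcripts of CD45+ sciatic nerve cells were sequenced with the 10x Genomics single-cell system in 3 libraries of 1 condition. The authors assembled contigs with Cell Ranger on mm10 (version not given in the sources used here), and the submitters' notes also name Seurat. They deposited, for each contig, counts of UMIs and reads, V and J genes and the CDR3, and for each clonotype its count of cells and its fraction of the library. Replicate 1 was deposited with 18 annotation columns and the others with 31, so the software may have differed. No called cell had more than 2 productive TRAs in these files.

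Productive TRA and TRB contigs of called cells with a CDR3 were used as deposited, with no UMI minimum, in Python 3.11.15 with pandas 2.3.3, numpy 2.4.6 and scipy 1.17.1. Sister cells had the same TRBV, nucleotide CDR3 and TRBJ within a library. Nonproductive TRA contigs had to be of high confidence with V and J named. Gene positions came from GENCODE M21 on GRCm38, the genome of mm10. Differences between dual-alpha and single-alpha cells were tested over 3 libraries with the exact sign-flip permutation test, two-sided, and shares were given exact 95% intervals. A count of 0 was given an upper limit of 3 counts. No doublet caller was run, as the gene expression was not analysed here. Named combinations were the 4 held by most cells in each library (at least 2, ties by TRA UMIs), of which 1 in replicate 2 is not reported here, and the cell with the most TRA UMIs. Named genes were the 5 most frequent families and J genes. The comparisons with nonproductive TRAs, cells with 2 TRBs and TRB size classes were added after values were seen. Members and lists were chosen with earlier results of these data known. The code was checked on artificial cells with known chains.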

Additional observations from a re-analysis of the deposited data

Results flagged for a closer look

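Barcodes that were not called cells lie outside the comparisons above, and some of them held 2 or more productive TRAs with 1 TRB. There were 56 such barcodes in replicate 1, 39 in replicate 2 and 2 in replicate 3. They made up 11.2% (8.61% to 14.4%), 31.97% (23.8% to 41.0%) and 3.64% (0.443% to 12.5%) of the 498, 122 and 55 barcodes outside cells with 1 TRB and a TRA. Unlike the cells, 11, 12 and 0 of them held 3 or more TRAs. The exact combination of a dual-alpha cell was found on 1, 1 and 0 of them. The share of replicate 3 rests on only 2 barcodes.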

How the results depend on the processing

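Of 121 alternative values of the 10 results, 111 were counted as unchanged. A tested result was so counted if its mean kept its sign, and any other if it moved by less than the spread between libraries. The sign of a mean can hide single libraries, as for the β chain ratio above. Recurrence of the pair was also so counted, although it went from 79.6% to 64.9% with chains of at least 3 UMIs. There replicate 3 went from 100% to 66.7%. The mean dual-alpha share went from 7.18% to 11.2% when cells under 4 TRA UMIs were left out and the rest thinned to 4. Leaving out those cells alone, chosen after seeing the data, gave 12.5%. The median ratio of second to first alpha UMIs went from 0.622 to 0.662 with chains of at least 2 UMIs and 0.704 with chains of at least 3, which leave 305 and 215 dual-alpha cells. The share of dual-alpha cells with an alpha found only with another TRB, 16.2% in the mean, was 13.2% and 9.88% under these minimums, 19.7% with TRAs told apart by amino acid CDR3, 13.2% with the TRBV name ignored (some sister TRBs carry different V names) and 20.6% with 1 cell for each TRB. The difference in expanded TRB share, -8.57 points, turned to 0.507 without replicate 1, and leaving out each library gave -14.96 to 0.507. For the J distance, leaving out each library gave -9.50 to -5.50 steps. Leaving out cells with more than 2 TRA rearrangements, or cells with an alpha found only with another TRB, both chosen after seeing the data, gave -8.67 and -8.33 steps. Taking cells with exactly 2 TRAs and merging near-identical TRAs changed no value. Neither could, since all dual-alpha cells had exactly 2 TRAs and none had near-identical ones. Dual-alpha and single-alpha cells were compared within each library, so these differences are already paired by library. The exact sign-flip test over 3 libraries cannot go below p = 0.25, and replicate 3, with 19 dual-alpha cells, is the least precise. The causes of these changes were not tested, except that minimums remove chains.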
